A study of Mus musculus with 20 samples.

Results

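Donor CD8+ effector T cells sorted from the lung were compared with those sorted from the peripheral blood of mice with acute graft-versus-host disease, on 10 of the 20 arrays of the series. The members were all arrays titled for lung (lung 1 to lung 5) and for peripheral blood (blood 1 to blood 5), and the other 10 arrays were of liver and small intestine. The 2 groups shared every labelled condition but the site. Any difference in how lung and blood were handled goes with the site and cannot be told apart from it. Recipients were female C57Bl/6 m-act OVA mice aged 8 to 16 weeks, in which the broadly active CAG promoter drives ovalbumin, so the antigen is not confined to 1 organ. They received 11 Gy of total body irradiation, then 3000000 bone marrow cells and 15000000 splenocytes. The CD8+ T cells of the graft came from CD45.1 OT-I donors, whose transgenic receptor recognises an ovalbumin peptide, while the rest of the graft and the recipients were CD45.2. On day 4 the CD45.1 cells were pulled out with antibody-coated magnetic beads, and their RNA went through a pair of linear amplification rounds before hybridisation. There was no array of ungrafted mice or of cells before transfer, the labels give no purity of the sorted cells, and they tie no array to an animal. The p-values below therefore measure a spread between arrays, which may be technical. In the gene tests (limma) that spread was pooled over all 20 arrays, not taken from the lung and blood arrays alone.

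In graft-versus-host disease, donor CD8+ T cells that meet their antigen divide, arm themselves with perforin and granzymes, and leave the blood for target organs. The lung receives them through a dense capillary bed, and its airspaces are held by alveolar macrophages, which take up and recycle surfactant lipid, and by alveolar type 2 cells, which make surfactant. T cells that are stimulated or handled switch on immediate early genes such as Fos and Jun within minutes, whereas dividing T cells depend on ribosome production, amino acid charging and the mitotic machinery.

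A level below is the log2 of a probe's signal over its own array's 75th percentile, so 0 is the level of a fairly bright probe. The signal at that percentile ran from 856.4 to 2194.1 units on the lung arrays and from 1553.0 to 2403.9 on the blood arrays (mean log2 10.4 ± 0.526 and 10.9 ± 0.282, SD, n = 5; exact two-sided permutation p = 0.087). The scanner software marked 23.5% to 32.6% of probes as well above background on the lung arrays and 22.6% to 35.5% on the blood arrays (27.8% ± 4.0 and 30.5% ± 5.18; exact two-sided permutation p = 0.37). Probes at background had a median level of -2.12 on lung 3 and -2.14 on lung 4 but -3.63 on blood 3 and -3.68 on blood 4, so for dim genes a difference of over 1 can arise with nothing measured on either array. For that reason a gene's direction on a slide was counted only where lung or blood was well above background, and a gene whose 5 arrays at 1 site all fell short of that mark is given as "at least N-fold". Precision is limited by having 5 arrays a site.

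The cells carried the identity genes of CD8 T cells at both sites. Of 20 such genes with a probe, between 18 and 20 were well above background on each lung array and 18 or 19 on each blood array. Cd3e, a chain of the T cell receptor complex, lay between 5.70 and 6.35 in lung and between 5.78 and 6.28 in blood. Cd8a, which pairs with the receptor to bind MHC class I, was at 4.19, 3.80, 3.96, 2.88 and 3.87 on lung 1 to 5 and at 3.93, 4.35, 5.04, 5.08 and 4.18 on blood 1 to 5 (difference -0.78 ± 0.45, SE; adjusted p = 0.21, limma). Lung 4 had the lowest Cd8a level, and the 2 groups overlapped. None of the 19 tested identity genes passed the threshold, and their median difference of -0.24 lay beside -0.30 for all genes tested. The mean of the 19 was 3.98 to 4.69 in lung and 4.43 to 4.96 in blood.

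Lung arrays also carried genes of lung cells that T cells are not known for, and lung 3 carried few of them. The endothelial genes Flt1 and Cldn5 were well above background on all 5 lung arrays, lung 3 included, and on 2 and 4 blood arrays. Of 20 alveolar macrophage markers with a probe, 18, 16, 1, 18 and 18 were well above background on lung 1 to 5, against 1, 3, 2, 2 and 4 on blood 1 to 5. Alveolar type 2 markers showed 8, 11, 3, 8 and 8 of 15 in lung against 3 or 4 in blood. Endothelial markers showed 9, 16, 5, 7 and 13 of 25 against 4 to 8. MHC class II genes, which activated mouse T cells lack, showed 6 of 9 on 4 lung arrays and 2 on lung 3. In blood they showed 1 or 2, except 6 on blood 5. The B cell markers Cd79a and Ms4a1 were not well above background on any of the 10 arrays, nor were Mpo of neutrophil precursors, Alb of hepatocytes and Col1a1 of fibroblasts. Other members of their lists were. Neutrophil markers showed 7, 8, 3, 6 and 6 of 18 in lung, against 3, 4, 3, 7 and 4 in blood. Fibroblast, smooth muscle and pericyte markers showed 5, 9, 0, 3 and 5 of 20, against 0 to 3. B cell and plasma cell markers showed 2 to 4 of 15 in lung and 2 or 3 in blood. Hepatocyte markers showed 1 of 12 on each lung array and 0 or 2 in blood. Fewer cells of a type and less RNA per cell cannot be told apart in such samples, and the part of the other cells in the differences of T cell genes was not tested.

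**Figure D1:**
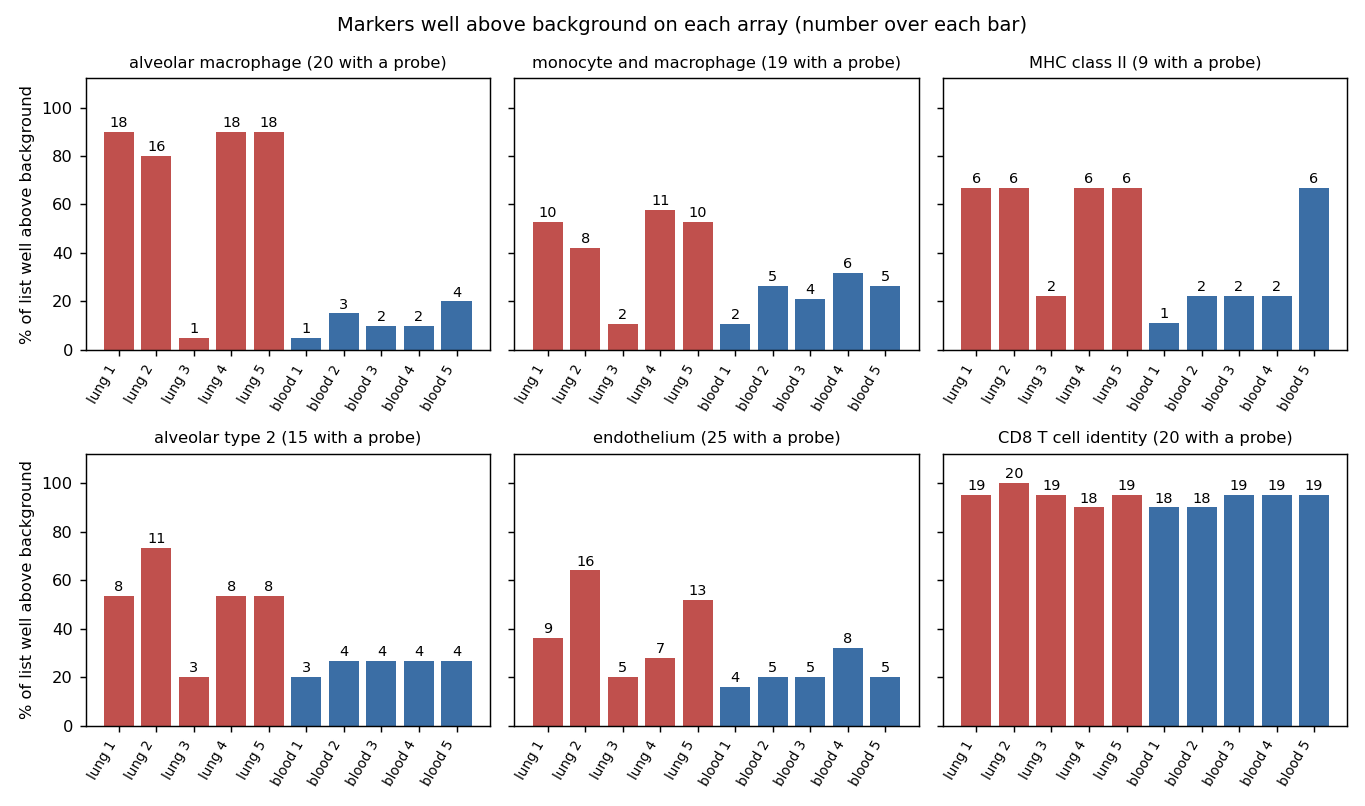
Share of the markers of 6 cell types that were well above background on each array (bars, in percent of the list's genes with a probe; the number of genes stands over each bar). The 4 lung arrays other than lung 3 showed 16 to 18 of 20 alveolar macrophage markers, lung 3 showed 1, and the CD8 T cell identity genes were present on all 10 arrays.

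Lung and blood differed in 66 of 8057 genes tested (0.819%; limma, adjusted p under 0.05), of which 42 were higher in lung (0.521%) and 24 lower (0.298%). At an unadjusted p under 0.05 there were 2722. The genes higher in lung included those of macrophages, alveolar epithelium and endothelium, together with Fos, Jun and Dusp1. The genes lower in lung included genes of ribosome production, translation, transcription and cell division. For 27 of the 42 higher genes none of the 5 blood arrays was well above background. These genes entered the test through lung or another organ, so they could only come out higher. Likewise, 5 of the 24 lower genes were not well above background on any lung array, and could only come out lower. The 5 lung and 5 blood values did not overlap for 38 of the 66 genes, 16 higher and 22 lower, and for 557 of all genes tested (6.91%). Lung 3 stood apart for the higher genes: 42 of the 42 lay above every blood array on lung 2, lung 4 and lung 5, 41 on lung 1, and 17 on lung 3. The lower genes lay below every blood array for 23 or 24 of 24 on each of the 5 lung arrays.

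**Figure D2:**
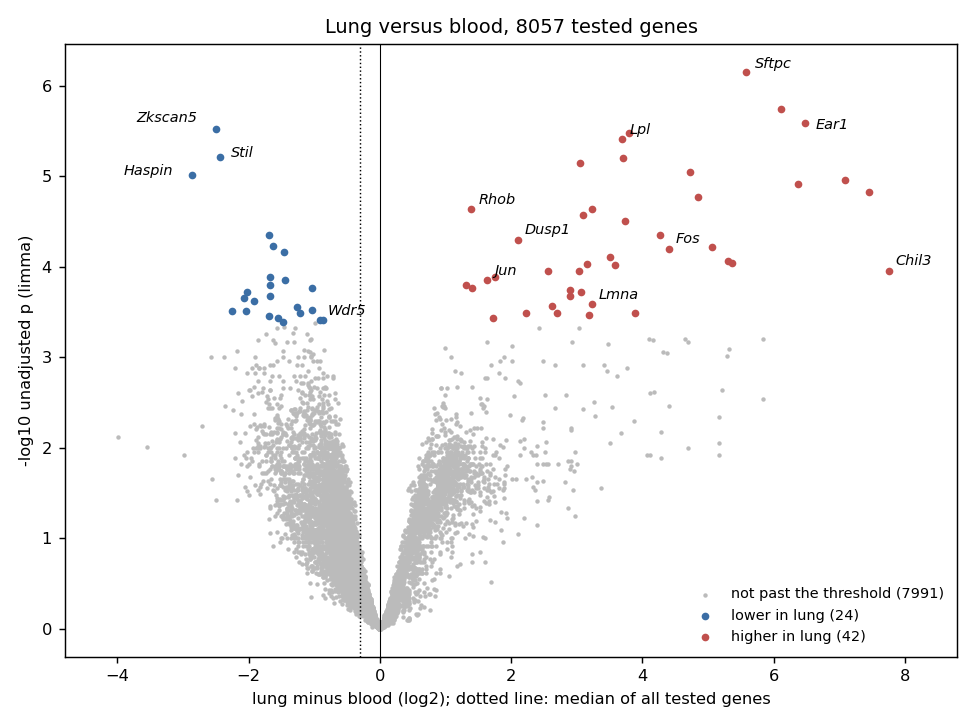
Lung minus blood difference (log2, horizontal axis) against -log10 of the unadjusted limma p (vertical axis) for the 8057 tested genes, 1 point per gene. The 42 genes higher in lung (red) reach 7.75, the 24 lower ones (blue) reach -2.86, and the dotted line marks the median of all genes at -0.30.

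**Figure D3:**
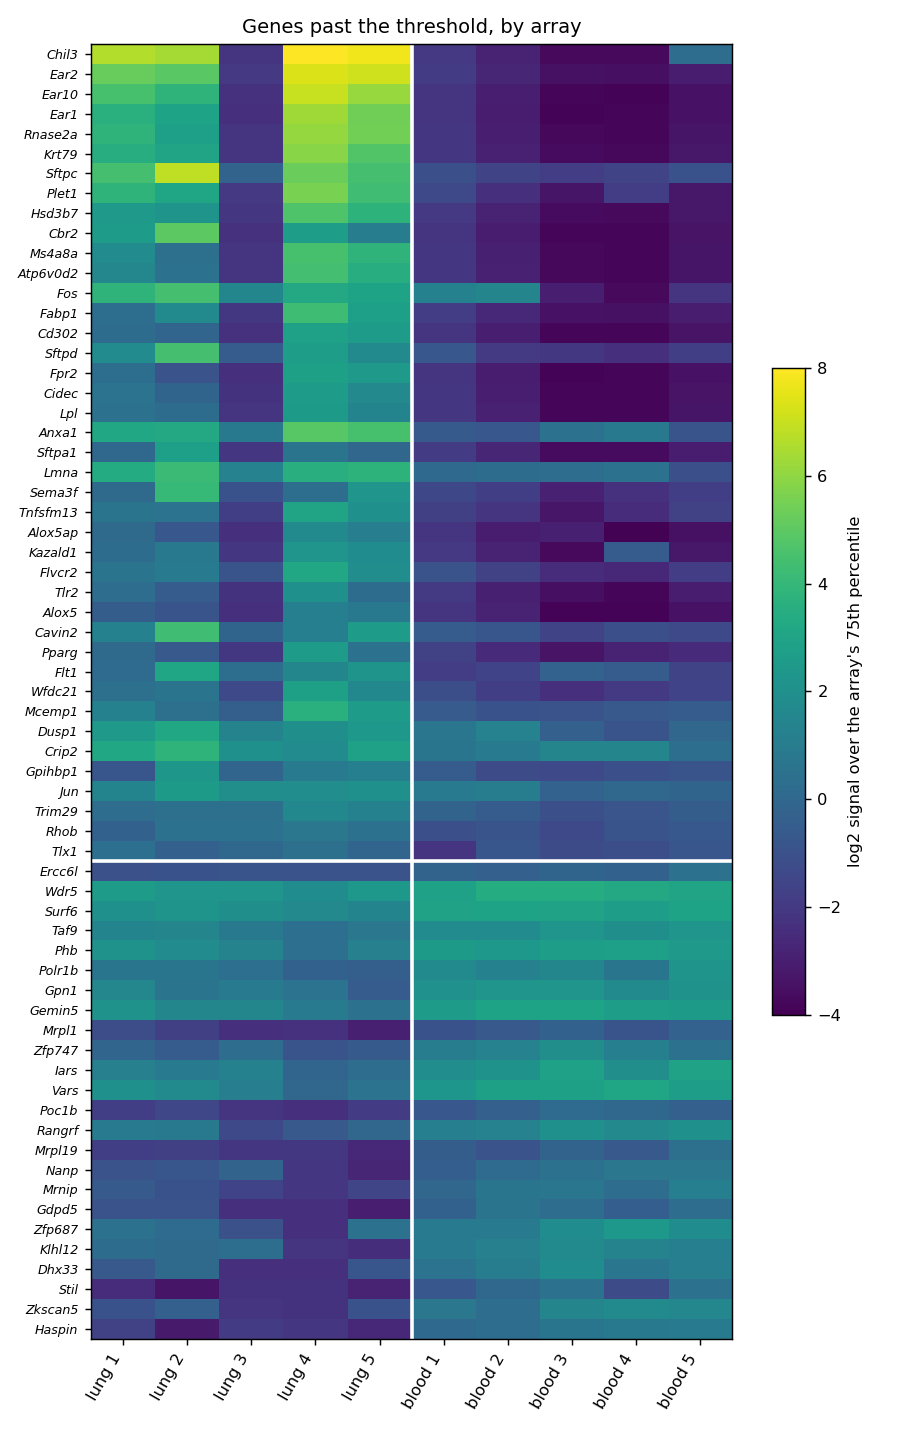
Level of 65 of the 66 genes past the threshold on each of the 10 arrays (colour, log2 signal over the array's 75th percentile), ordered by difference, with 41 higher genes above the white line. Lung 3 is as dark as the blood arrays for Chil3 (-2.13) and Ear2 (-2.01), whereas for Sftpc (-0.19) it lies above them.

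On every slide where at least 1 of the 2 arrays was well above background, 41 of the 42 higher genes were higher in lung and 24 of the 24 lower genes were lower. The exception, Gpihbp1, was lower in lung on slide 1. For the 27 higher genes with no blood array above background, and the 5 lower genes with no such lung array, the rule largely fixed the direction. It also left 29 of the higher genes counted on 4 slides alone. The genes were called on these same arrays, so the agreement between slides is no independent support. The same fit gave 23 genes between lung and liver (0.285%) and 12 between lung and small intestine (0.149%). Of the 42 higher genes, 20 also differed between lung and liver and 10 between lung and small intestine. Of the 24 lower genes, 2 (Zkscan5 and Mrpl19) also differed from liver and none from small intestine, where 12 calls were made in all. These comparisons share the lung arrays with the one against blood. They also include the arrays labelled liver 5 and small intestine 5, which may not match their labels, so these counts are uncertain.

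Alveolar macrophage markers were high on 4 of the 5 lung arrays, and one of them, Chil3, had the largest difference of the 66 called genes. Of 20 such markers, each with a probe, 16 were tested, 10 were higher in lung and none lower, with a median difference of 4.32 beside -0.30 for all genes. Most passed the filter because they are bright in lung, so the count describes these arrays and is no independent support. Chil3, a secreted chitinase-like protein of macrophages, was at 6.60, 6.37, -2.13, 8.21 and 7.76 on lung 1 to 5 and at -2.02, -2.83, -3.70, -3.69 and 0.30 on blood 1 to 5 (difference 7.75 ± 1.62, adjusted p = 0.026). It was high on 4 lung arrays and at background on lung 3, and blood 5 was the only blood array where it was measured. Lpl, lipoprotein lipase, which releases fatty acids from lipoproteins, was at 0.54, 0.24, -2.19, 2.55 and 1.41 in lung and between -3.81 and -2.10 in blood, where no array was well above background (at least 2.94-fold higher, adjusted p = 0.0053). The lung groups of both genes overlapped the blood groups only through lung 3.

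The other called members were Krt79, a keratin (at least 16.4-fold higher, adjusted p = 0.0053), Plet1, a surface protein (at least 15.9-fold, 0.025), and Atp6v0d2, a subunit of the proton pump of lysosomes (at least 6.05-fold, 0.0070). Cidec, a protein of lipid droplets, was at least 2.90-fold higher (adjusted p = 0.0064). Pparg, the nuclear receptor that directs lipid handling in alveolar macrophages, was at 0.16, -0.66, -2.04, 2.62 and 0.53 in lung and between -3.36 and -1.63 in blood (at least 2.25-fold higher, adjusted p = 0.044). Marco, a scavenger receptor, and Siglecf, a lectin of alveolar macrophages and eosinophils, missed the threshold with differences of 4.37 ± 1.12 and 3.76 ± 1.00 (adjusted p = 0.071 and 0.077). Without lung 3 the median over the 16 tested markers was 5.39.

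Ear1, Ear2, Ear10 and Rnase2a, secreted ribonucleases of the eosinophil-associated family, rose together. The first 3 of them complete the 10 called markers, and Rnase2a was not in the list. Ear2 was at 5.22, 4.91, -2.01, 7.38 and 7.11 on lung 1 to 5 and between -3.53 and -1.89 in blood. Ear10 and Ear1 peaked at 6.97 and 6.29 on lung 4, and Rnase2a at 6.08, also on lung 4. All of them were at background on lung 3 and on the 5 blood arrays. They were at least 47.5-fold (Ear2), 29.4-fold (Ear10), 18.9-fold (Ear1) and 18.7-fold (Rnase2a) higher in lung, with adjusted p of 0.0089, 0.0071, 0.0053 and 0.0075. These genes are near copies of one another, so a probe of 1 may also bind transcripts of the others, and their levels are uncertain as separate values. The likeness extends to the DNA before the transcription start. In the 250 bases before the start, Ear1 and Ear2 were equal at 246 of 248 aligned bases (99.2%, without gaps), with a shared run of 197 bases, while Ear1 and Ear10 were equal at 85.5%. Aligned without gaps, Rnase2a was equal to Ear1, Ear2 and Ear10 at 44.5%, 43.6% and 67.6%, with shared runs of 23 to 25 bases. These shares understate its likeness to Ear1 and Ear2, because its window below holds an extra stretch with matching bases on both sides. The last 120 bases before the start are shown because the genes rose together. RefSeq gives them in GRCm38.p6 at chr14:43819640-43819759 (minus strand), chr14:44102534-44102653 (plus strand), chr14:43923597-43923716 (minus strand) and chr14:51256113-51256232 (minus strand), and capitals mark the longest run that all 4 windows share, of 22 bases.
Ear1: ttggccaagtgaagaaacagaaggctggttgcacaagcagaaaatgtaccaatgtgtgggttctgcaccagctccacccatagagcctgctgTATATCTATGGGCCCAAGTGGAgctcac
Ear2: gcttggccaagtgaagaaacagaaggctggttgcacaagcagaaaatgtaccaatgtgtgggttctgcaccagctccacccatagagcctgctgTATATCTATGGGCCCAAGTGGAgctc
Ear10: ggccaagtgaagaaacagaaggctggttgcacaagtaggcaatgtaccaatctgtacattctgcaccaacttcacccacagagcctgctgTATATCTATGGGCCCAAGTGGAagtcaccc
Rnase2a: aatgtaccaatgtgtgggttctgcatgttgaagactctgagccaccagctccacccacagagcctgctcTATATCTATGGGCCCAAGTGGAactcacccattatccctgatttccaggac

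Among 25 tested genes of fatty acid metabolism and PPAR targets, 4 were higher (Lpl, Cidec, Pparg and Fabp1), none was lower, and the median difference was 0.21 beside -0.30 for all genes. The first 3 are also in the macrophage list, which leaves Fabp1. Fabp1, a fatty acid binding protein best known from liver and gut, was at 0.33, 1.69, -2.05, 4.25 and 2.76 in lung and between -3.46 and -1.80 in blood (at least 5.44-fold higher, adjusted p = 0.017). Hadhb and Acadvl, enzymes of mitochondrial fatty acid oxidation that T cells also use, had differences of -0.26 ± 0.30 and 0.21 ± 0.25 (adjusted p = 0.50 and 0.52).

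Alox5 and its partner Alox5ap start leukotriene synthesis in myeloid cells, and both rose, the former by at least 1.65-fold (adjusted p = 0.034) and the latter by 2.03-fold or more (0.012). Fpr2, a receptor for formylated peptides, rose by at least 2.87-fold (adjusted p = 0.013) and Tlr2, a receptor for bacterial lipoproteins, by at least 2.01-fold (0.026). Flvcr2, a membrane transporter, was at 0.61, 0.94, -0.86, 3.17 and 1.89 in lung and between -2.60 and -0.92 in blood (at least 4.59-fold, 0.0064). Hsd3b7, an enzyme of bile acid synthesis, rose by at least 9.63-fold (0.025), Ms4a8a, a membrane protein, by at least 6.57-fold (0.0093) and Cd302, a C-type lectin receptor, by at least 3.28-fold (0.044). Mcemp1, a membrane protein of mast cells and macrophages, was higher by 2.23 ± 0.51 (0.044). Wfdc21, Kazald1 and Tnfsfm13 completed the group, the last a read-through symbol whose signal cannot be separated from that of its neighbours on this array. All of these genes were well above background on 4 lung arrays, and lung 3 was the one without.

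Class II and general monocyte genes did not pass. H2-Ab1, a chain of the MHC class II molecule, was at 3.39, 4.00, -2.06, 5.58 and 5.39 in lung and at -2.0, -0.42, -3.58, -3.62 and 0.12 in blood (difference 5.16 ± 1.78, adjusted p = 0.12). Cd74, the invariant chain that guides class II molecules, had a difference of 3.67 ± 1.22 (adjusted p = 0.12). Over the 6 tested class II genes none passed, with a median of 4.18. Tyrobp, a signalling adaptor of myeloid and natural killer cells, was at 2.09, 2.16, 0.12, 5.13 and 4.21 in lung against -1.80 to 0.24 in blood (3.46 ± 0.93, adjusted p = 0.079). None of the 8 tested monocyte and macrophage markers passed. Csf1r and Adgre1, defining genes of macrophages, were well above background on 3 lung arrays each and on no blood array, while C1qa, C1qb and Ccr2 were not on any of the 10.

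Surfactant genes rose. Sftpc, the surfactant protein made only by alveolar type 2 cells, was at 4.48, 6.87, -0.19, 5.28 and 4.45 on lung 1 to 5 and at -1.08, -1.55, -1.83, -1.55 and -1.0 on blood 1 to 5. Every lung array lay above every blood array, although lung 3 was not well above background. The gene was at least 36.3-fold higher (adjusted p = 0.0053) and kept its call without any 1 of the 10 arrays. Sftpd, a lectin of the airspace lining, followed with 1.79, 4.44, -0.51, 2.66 and 1.74 in lung and -2.39 to -0.73 in blood (at least 8.40-fold, adjusted p = 0.0053). Sftpa1, another collectin of surfactant, was highest on lung 2 at 2.79 and rose by at least 2.47-fold (adjusted p = 0.011). Of 15 alveolar type 2 markers 8 were tested, and 3 were higher.

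Lamp3, Abca3 and Etv5, which are listed for type 2 cells but also present in blood here, had differences of -0.53 ± 0.41, -0.45 ± 0.46 and -0.94 ± 0.61 (adjusted p = 0.33, 0.46 and 0.25). Cbr2, a carbonyl reductase of lung epithelium, was at 2.59, 4.99, -2.31, 2.70 and 1.04 in lung and at background in blood (at least 7.21-fold, adjusted p = 0.020). Scgb1a1, the secretoglobin of club cells, was well above background on lung 1 (1.44) and lung 2 (3.42) alone, and was not tested. Lung 2 had the highest level of Sftpc, Sftpd, Sftpa1, Cbr2 and Scgb1a1, whereas lung 4 had the highest level of Chil3, Ear2 and Lpl. The 2 groups of genes thus did not follow the same order over the lung arrays.

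Of 8 tested endothelial markers 1 rose, Flt1, and their median difference was 1.47. Flt1, a receptor for vascular endothelial growth factor, was at 0.21, 3.10, 0.33, 1.49 and 2.23 in lung and at -1.83, -1.58, -0.22, -0.52 and -1.56 in blood (2.62 ± 0.59, adjusted p = 0.043). All 5 lung arrays lay above the 5 blood arrays, lung 3 included. Cavin2, a coat protein of caveolae, was higher by 2.90 ± 0.64 (adjusted p = 0.036), Gpihbp1, which holds lipoprotein lipase on capillaries, by 1.73 ± 0.41 (0.048), and Crip2, a LIM-domain protein of vessels and heart, by 1.76 ± 0.37 (0.029). Cavin2, Gpihbp1 and Crip2 were not in the list. Cldn5, a tight-junction protein, had a difference of 2.49 ± 0.66 (adjusted p = 0.076), and Kdr, the other main receptor for that growth factor, -0.17 ± 0.21 (0.54). Pecam1 and Tek were not well above background on any of the 10 arrays. Sema3f, a secreted guidance protein, was at least 4.61-fold higher (adjusted p = 0.046).

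For 10 of the 42 higher genes all 5 lung arrays were well above background, and none of these 10 overlapped with blood: Fos, Anxa1, Lmna, Flt1, Dusp1, Crip2, Jun, Trim29, Rhob and Tlx1. Fos, which pairs with Jun to form the transcription factor AP-1, was at 3.81, 4.44, 1.49, 3.22 and 2.95 on lung 1 to 5 and at 1.27, 1.48, -2.98, -3.71 and -2.16 on blood 1 to 5 (4.40 ± 0.87, adjusted p = 0.020). Blood 1 and blood 2 were high and the other 3 near background, and lung 3 lay only just above blood 2. Within slides 1 to 5 the difference was 2.54, 2.96, 4.47, 6.94 and 5.11. The slide held 1 array of each site, and lung was the higher one on each.

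Jun was at 1.40, 2.54, 1.91, 1.90 and 2.01 in lung and at 0.88, 1.06, -0.24, 0.01 and -0.11 in blood (1.63 ± 0.35, adjusted p = 0.030). Lung 3 stood in the middle of the lung arrays here. Dusp1, a phosphatase that switches MAP kinases off and is itself induced with Fos, was at 2.43, 3.15, 1.39, 1.96 and 2.39 in lung and at 0.73, 1.32, -0.33, -0.86 and -0.04 in blood (2.10 ± 0.41, adjusted p = 0.018). None of the 3 passed against liver or small intestine: for Fos the differences were 1.00 (adjusted p = 0.45) and 0.94 (0.86), for Jun 0.72 (0.33) and 0.31 (0.88), and for Dusp1 0.05 (0.94) and 0.28 (0.89). A missed threshold does not show that the organs were alike.

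The 250 bases before the start of Fos, Jun and Dusp1 are shown because the genes rose together and their promoters are known for short response elements. RefSeq places them in GRCm38.p6 at chr12:85473640-85473889 (plus strand), chr4:95052223-95052472 (minus strand) and chr17:26508473-26508722 (minus strand). Both strands were searched for the cAMP response element TGACGTCA, its first 5 bases TGACG (which overlap it), the TPA response element TGANTCA, the variant TGACATCA and the TATA box TATAAA, and capitals mark the matches. Of 32851 promoter windows of this length, 1.55%, 17.8%, 6.75%, 2.93% and 12.4% hold these motifs. Fos held TGACG with its first base at -129 and -66 and TATAAA at -33, Jun held TGACATCA at -45, and Dusp1 held TGACGTCA at -143 and TGACG at -191. No window held TGANTCA. A match describes the letters and shows no binding.
Fos: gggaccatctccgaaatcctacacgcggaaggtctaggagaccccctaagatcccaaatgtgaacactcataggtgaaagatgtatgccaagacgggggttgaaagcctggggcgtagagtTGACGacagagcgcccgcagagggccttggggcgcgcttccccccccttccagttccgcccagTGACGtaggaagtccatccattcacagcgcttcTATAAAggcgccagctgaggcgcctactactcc
Jun: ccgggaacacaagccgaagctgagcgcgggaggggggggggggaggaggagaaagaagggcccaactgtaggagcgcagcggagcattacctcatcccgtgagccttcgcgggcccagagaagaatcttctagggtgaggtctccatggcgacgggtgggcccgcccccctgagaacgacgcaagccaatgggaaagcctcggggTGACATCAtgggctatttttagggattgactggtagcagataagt
Dusp1: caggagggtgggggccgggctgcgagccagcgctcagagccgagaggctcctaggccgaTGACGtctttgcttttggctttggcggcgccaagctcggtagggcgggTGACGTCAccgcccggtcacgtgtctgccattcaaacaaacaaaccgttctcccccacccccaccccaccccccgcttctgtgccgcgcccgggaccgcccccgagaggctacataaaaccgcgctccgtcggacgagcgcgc

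The rest of the AP-1 and immediate early lists did not pass. Of 7 tested AP-1 factors 2 were higher, and the median difference was 1.63 beside -0.30. Fosb was at 5.38, 5.50, 2.62, 4.01 and 4.06 in lung and at 3.10, 3.46, 2.55, -2.39 and -2.84 in blood (3.54 ± 1.07, adjusted p = 0.11). Jund and Batf had differences of 0.33 ± 0.28 and -0.53 ± 0.36 (adjusted p = 0.37 and 0.27). Nr4a1, an orphan receptor induced by antigen receptor signals, was at 4.00 to 5.55 in lung and 2.50 to 4.18 in blood (1.54 ± 0.46, adjusted p = 0.11), and Cd69, which holds T cells in tissue, at 0.48 to 3.21 and -1.93 to 2.60 (1.75 ± 0.70, 0.12). None of 5 tested Nr4a and Egr factors and none of 20 other immediate early genes passed, with medians of 1.06 and 0.46. Of 9 MAP kinase phosphatases only Dusp1 passed. Junb was not tested.

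Rhob, a small GTPase that is also induced at once by stress, had the smallest SE of these 10 genes: -0.26, 0.49, 0.49, 0.76 and 0.53 in lung against -1.05, -0.89, -1.36, -0.89 and -0.71 in blood (1.39 ± 0.25, adjusted p = 0.011). Anxa1, a lipid-binding protein induced by glucocorticoids, was at 3.15, 3.23, 0.84, 4.88 and 4.52 in lung and at -0.60, -0.74, 0.47, 0.84 and -0.88 in blood (3.51 ± 0.71, adjusted p = 0.023). At 2 decimals lung 3 equalled blood 4. Lmna, which encodes the lamins A and C of the nuclear envelope, was at 3.40, 4.19, 1.32, 3.53 and 3.75 in lung and at 0.11, 0.24, 0.30, 0.46 and -1.07 in blood (3.23 ± 0.73, adjusted p = 0.042).

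For Anxa1 and Lmna, lung 3 was the lowest lung array, so these genes lay between the macrophage markers and Rhob in how far they followed lung 3. Of 17 tested glucocorticoid response genes 2 were higher (Dusp1 and Anxa1), with a median of 0.39, while Tsc22d3, a glucocorticoid-induced leucine zipper protein, and Fkbp5, a co-chaperone of the receptor, had differences of 0.78 ± 0.39 and -0.29 ± 0.40 (adjusted p = 0.16 and 0.58). Of 29 annexins, lamins and S100 genes Anxa1 and Lmna were the 2 called, and Anxa6 and S100a6, bright at both sites, differed by 0.01 ± 0.27 and 0.21 ± 0.36 (0.98 and 0.66). Trim29, a tripartite motif protein, and Tlx1, a homeobox factor, rose by 1.41 ± 0.31 and 1.32 ± 0.28 (both adjusted p = 0.033).

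**Figure D4:**
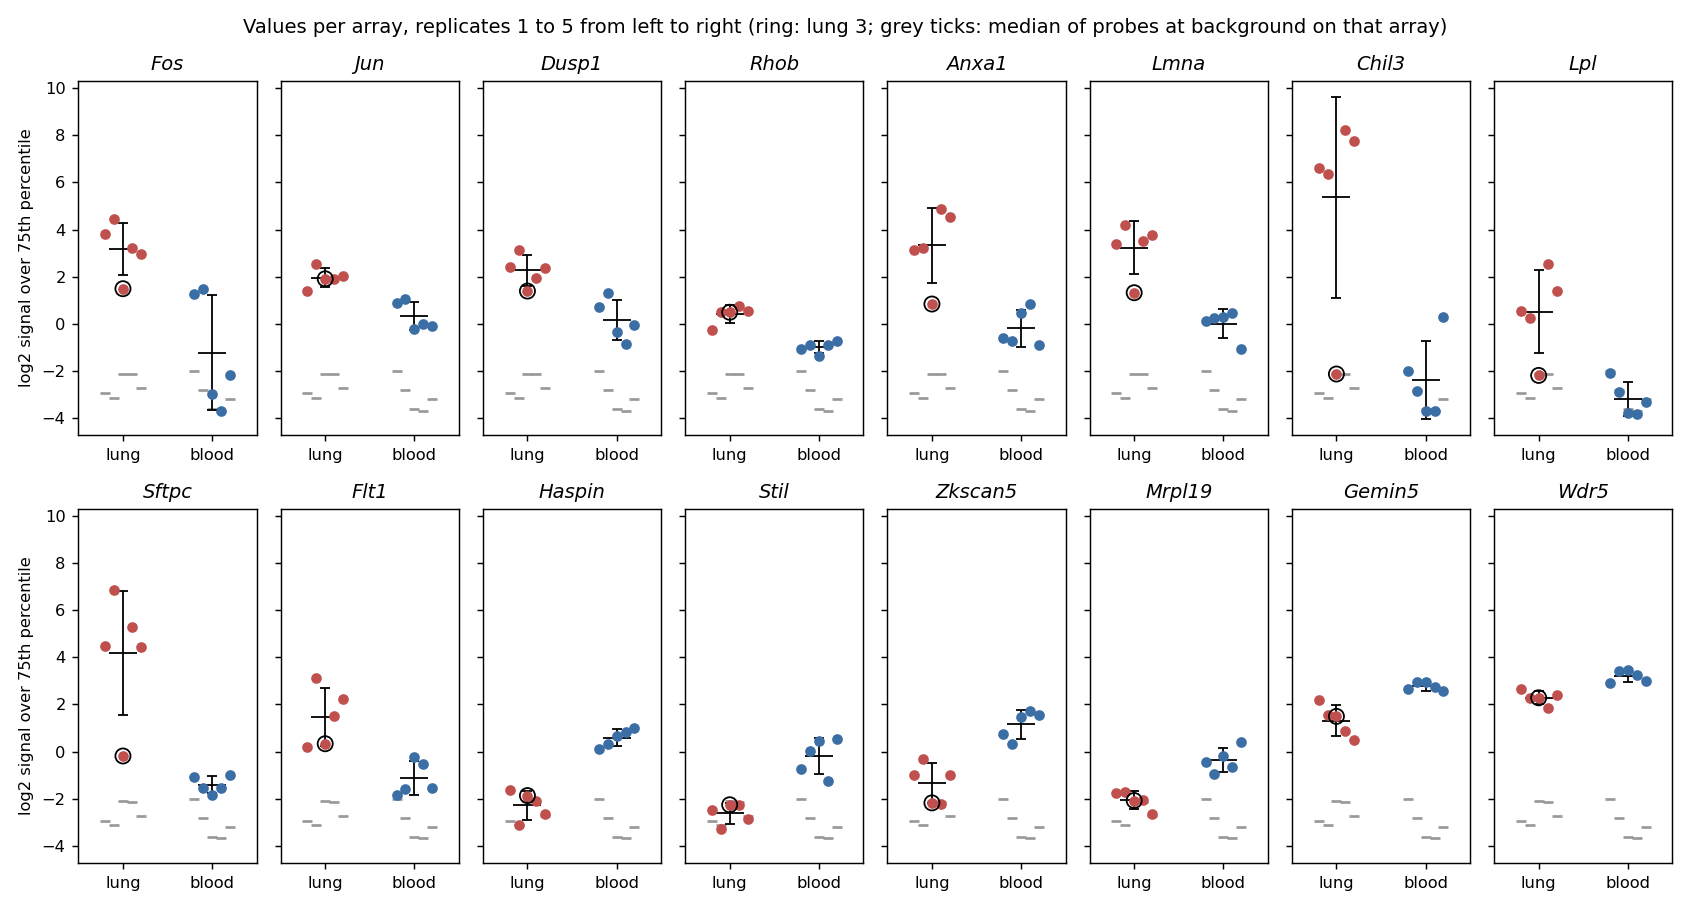
Level of 16 of the genes described, 1 point per array (lung red, blood blue, replicates 1 to 5 from left to right), with the mean and SD (n = 5) in black, lung 3 ringed, and grey ticks at the median of the probes at background on that array. Rhob and Jun separate the sites on all arrays, Chil3 and Lpl fall to background on lung 3, and Haspin and Stil are near background on the 5 lung arrays.

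The genes lower in lung included several of cell division. Haspin, the kinase that marks histone H3 at mitotic centromeres, was at -1.62, -3.13, -1.87, -2.09 and -2.67 on lung 1 to 5 and at 0.12, 0.30, 0.67, 0.84 and 1.00 on blood 1 to 5. No lung array was well above background and 4 blood arrays were, so the level was at least 2.23-fold lower in lung (adjusted p = 0.0070). Stil, which is required for centriole duplication, was at -2.48, -3.30, -2.26, -2.25 and -2.85 in lung and at -0.74, 0.02, 0.46, -1.23 and 0.52 in blood (at least 1.30-fold lower, adjusted p = 0.0064). Both kept their call without any 1 array, but with no lung array well above background they could only come out lower. Poc1b, a protein of the centriole wall, was at least 1.27-fold lower (adjusted p = 0.029) and Ercc6l, a DNA translocase of mitotic chromosome bridges, fell by 0.87 on the log2 scale (SE 0.20, 0.048).

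Over the lists these calls were single: 1 of 40 tested mitosis genes (Haspin) and 1 of 12 centrosome and centriole genes (Stil) were lower and none higher, with medians of -0.70 each beside -0.30. Birc5, Cdca8 and Cdc20, bright mitosis genes, had differences of -0.07 ± 0.22, -0.59 ± 0.30 and -0.48 ± 0.33 (adjusted p = 0.82, 0.16 and 0.28). Mki67, the proliferation antigen, was at 5.35 and 5.01 on lung 1 and 2 and at 2.03, 1.14 and 2.30 on lung 3, 4 and 5. In blood it was at 5.56 and 5.79 on the first pair and at 2.64, 1.95 and 2.34 on the rest. Mki67 was thus split mainly by replicate number, while within each slide lung lay below blood. The split enters the spread of the fit (-0.49 ± 0.92, adjusted p = 0.68, limma), which therefore cannot show that the sites were alike. The mean of the tested mitosis genes was also lower in lung on every slide, as were those of the DNA replication and glycolysis lists. None of 34 DNA replication genes and none of 13 G1 cyclins and CDK inhibitors passed, with medians of -0.56 and -0.41, and E2f1, which drives entry into S phase, was at 3.15 to 3.64 in lung and 3.68 to 4.40 in blood (-0.62 ± 0.23, 0.12).

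Several lower genes make ribosomes and proteins. Surf6, a nucleolar protein, was at 2.04, 2.19, 1.96, 1.64 and 1.40 in lung and at 2.90, 2.94, 2.93, 2.69 and 2.98 in blood, so it fell by 1.04 (SE 0.23, adjusted p = 0.033). Polr1b, a large subunit of RNA polymerase I, fell by 1.26 (SE 0.29, 0.043), with lung at -0.36 to 0.68 and blood at 0.66 to 2.21. Dhx33, an RNA helicase of the nucleolus, fell by 2.25 (SE 0.52, 0.044) and was the 1 called of 35 RNA helicases. The cytosolic valyl- and isoleucyl-tRNA synthetases Vars and Iars, which load amino acids onto tRNA, fell by 1.67 (SE 0.36, 0.032) and by 1.62 (SE 0.32, 0.020). Vars was at 2.01, 1.70, 1.12, -0.02 and 0.55 in lung and at 2.32, 2.84, 2.82, 3.06 and 2.66 in blood, without overlap.

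Mrpl1 and Mrpl19, proteins of the large mitochondrial ribosomal subunit, were not well above background on any lung array. Mrpl19 was at least 1.15-fold lower (adjusted p = 0.017), and for Mrpl1 the bound was under 1, so it is given without a fold (adjusted p = 0.050 as rounded, under the threshold). They were the 2 called of 71 mitochondrial ribosomal proteins, whose median was -0.46. Gemin5, which delivers spliceosomal RNA to the SMN complex and also binds ribosomes, was at 2.17, 1.53, 1.49, 0.88 and 0.48 in lung and at 2.64, 2.96, 2.96, 2.74 and 2.56 in blood, and fell by 1.46 (SE 0.29, 0.021). The 87 tested cytosolic ribosomal proteins held no call and had a median of 0.13, which became -0.05 with each array scaled on those probes that stood well above background throughout the 20 arrays.

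Other lower genes serve transcription and nuclear traffic. Wdr5, a core subunit of histone H3 methyltransferases, was at 2.64, 2.28, 2.28, 1.84 and 2.41 in lung and at 2.89, 3.42, 3.45, 3.23 and 2.99 in blood, a fall by 0.91 (SE 0.21, adjusted p = 0.048). Taf9, a subunit of TFIID, fell by 1.04 (SE 0.24, 0.044), Gpn1, a GTPase that brings RNA polymerase II into the nucleus, by 1.45 (SE 0.31, 0.030), and Rangrf, a cofactor of the nuclear transport GTPase Ran, by 1.68 (SE 0.37, 0.036). Phb, a scaffold of the inner mitochondrial membrane, was at 2.12, 1.78, 1.38, 0.36 and 1.24 in lung and at 2.42 to 2.77 in blood (fell by 1.21, SE 0.28, 0.044). For each of the lower genes named here other than Polr1b and Nanp, the 2 groups did not overlap, and lung 4 or lung 5 was the lowest of the lung arrays for Surf6, Vars, Gemin5, Wdr5 and Phb.

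Zinc finger genes gave 3 calls, all lower, of 137 tested (median -0.48 beside -0.30). Zkscan5, a KRAB-type zinc finger factor, was at -0.99, -0.30, -2.18, -2.22 and -1.0 in lung and at 0.74, 0.30, 1.48, 1.71 and 1.56 in blood (fell by 2.50, SE 0.39, adjusted p = 0.0053), and it kept its call without any 1 array. Zfp687 and Zfp747 fell by 2.04 (SE 0.47, 0.044) and by 1.55 (SE 0.36, 0.048). Zfp146, Zfp663 and Zfp408, which with Zfp36l2 are the 4 brightest of the list, had differences between 0.09 and 0.87 (adjusted p = 0.13 to 0.84), and Zfp36l2 of -0.12 (0.80). The remaining lower genes were Klhl12, an adaptor of a ubiquitin ligase of vesicle coats (by 2.07, SE 0.46, 0.036), Gdpd5, a glycerophosphodiesterase (by 2.02, SE 0.44, 0.035), Mrnip, a partner of the MRN DNA repair complex (by 1.91, SE 0.43, 0.039), and Nanp, a phosphatase of sialic acid synthesis (by 1.69, SE 0.39, 0.047).

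Genes of effector function held no call. Of 12 tested cytotoxic molecules none passed (median -0.41). Prf1, which encodes perforin, the pore former, was at -0.22, -0.60, -0.14, -2.28 and -2.35 in lung and at 0.24, 0.20, 1.64, 1.07 and -0.39 in blood (-1.67 ± 0.56, adjusted p = 0.12). Gzmb, the main killing protease, was at 5.81, 5.41, 5.32, 3.20 and 3.89 in lung and at 5.65, 6.09, 6.38, 6.16 and 4.92 in blood (-1.11 ± 0.56, 0.16). Lung 4 and lung 5 were the low ones for both. Gzma, another granzyme, was at 6.50 to 6.78 in lung and 6.47 to 6.73 in blood (0.05 ± 0.27, 95% interval -0.51 to 0.61, adjusted p = 0.88). Ifng, the cytokine of these cells, differed by 0.76 ± 0.53 (0.28) and Tnf, dim at both sites, by 0.75 ± 0.37 (0.16). None of 15 effector cytokines and chemokines passed, with a median of 0.69.

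Genes of tissue residence and of circulation did not pass either. Of 20 tested residency genes none was called (median 0.09), and of 20 genes of circulating cells none (median -0.41). S1pr1, the receptor that draws T cells back to blood, was at 2.14, 2.73, 1.79, -0.39 and 1.29 in lung and at 2.36 to 3.88 in blood (-1.41 ± 0.71, adjusted p = 0.16). Klf2, the factor that drives S1pr1, differed by 0.34 ± 0.38 (0.50) and Ccr7, the lymph node chemokine receptor, by 0.64 ± 0.53 (0.35). Cxcr6 and Cxcr3, receptors that guide effector cells into tissue, were bright at both sites, with differences of -0.87 ± 0.74 and -0.35 ± 0.58 (0.37 and 0.64). Itga1 was not well above background on any of the 10 arrays.

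Receptors, signalling and fate factors likewise gave no call: none of 16 chemokine receptors, 22 integrin and selectin ligand genes, 13 inhibitory and 14 costimulatory receptors, 21 cytokine receptors, 22 receptor signalling genes and 27 effector and memory transcription factors passed, with medians from -0.58 to -0.07. Pdcd1, the inhibitory receptor PD-1, was at 5.50 to 6.39 in lung and 5.64 to 5.93 in blood (0.21 ± 0.30, adjusted p = 0.59). Tbx21, the effector fate factor T-bet, differed by 0.46 ± 0.30 (0.25). Il2ra, the high-affinity interleukin-2 receptor chain, was at 2.61, 2.39, 3.27, 0.25 and -0.50 in lung and at 1.77 to 3.43 in blood (-1.17 ± 0.65, 0.19), and Il7r, the interleukin-7 receptor, differed by -0.97 ± 0.79 (0.35).

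Metabolic and stress lists held no call. None of 57 oxidative phosphorylation subunits passed (median -0.28), nor did any of 26 interferon-stimulated genes (0.06), 13 heat shock chaperones (-0.18), 10 hypoxia genes (-0.52) or 15 p53 targets and DNA damage genes (0.56). The mean of the last list was 1.64 to 2.56 in lung and 1.20 to 1.62 in blood, without overlap, and it was higher in lung on 5 of 5 slides. Neither trait was particular to this list. The means of T cell receptor signalling (2.33 to 3.04 and 3.10 to 3.36), centrosome, RNA helicase and zinc finger genes did not overlap either, and were lower in lung. Effector cytokine, residency, SOCS, and Nr4a and Egr lists, among others, were also higher in lung on 5 of 5 slides. Of 23 glycolysis and nutrient transporter genes none passed (median -0.69). Gapdh, Eno1, Aldoa and Ldha, the brightest of them, had differences between -0.15 and 0.17 (adjusted p = 0.61 to 0.64), so the median rested on dimmer members. Ppp1r15a, which restarts translation after stress, was at 4.96 to 5.75 in lung and 3.83 to 4.95 in blood, without overlap (1.03 ± 0.29, adjusted p = 0.095).

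**Figure D5:**
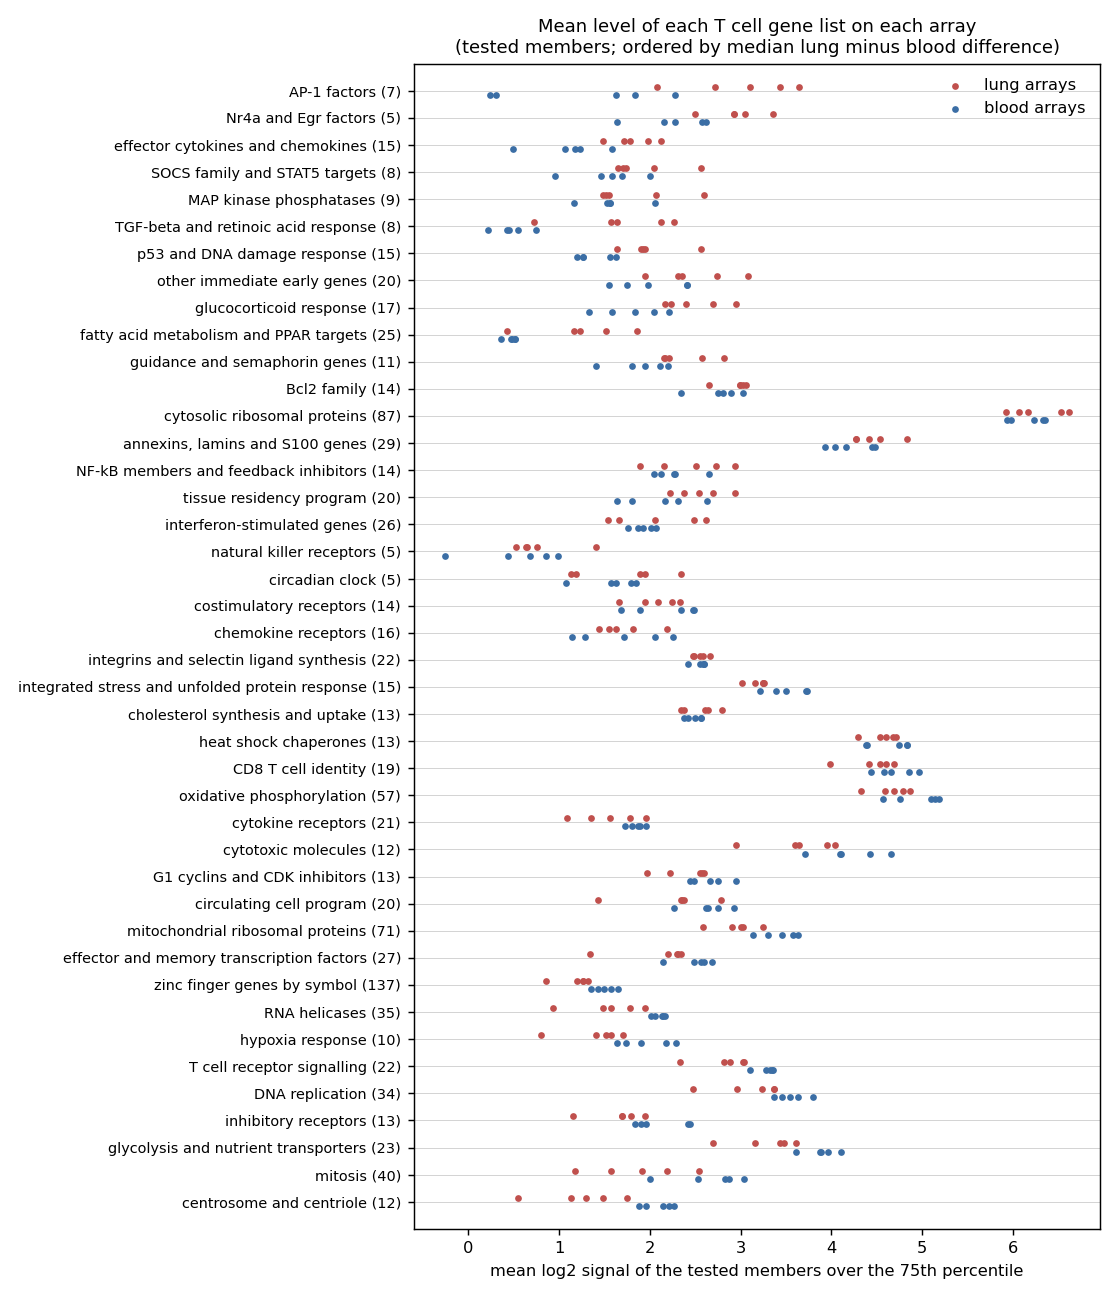
Mean level of the tested members of each T cell gene list (number of members in brackets) on each lung array (red) and blood array (blue), in log2 signal over the array's 75th percentile, ordered by the list's median difference. AP-1 factors stand at the top with 2 of 7 members called, and lung and blood means overlap for the CD8 identity list (3.98 to 4.69 and 4.43 to 4.96).

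How many genes passed differed with the array left out. The total stayed nearest to 66 without lung 2, although 14 of the 66 calls were lost there, against 0 without lung 1. Without lung 1 the count was 397 higher and 449 lower, without lung 2 it was 33 and 32, and without lung 3 it was 79 and 26. It was 19 and 4 without lung 4, 15 and 3 without lung 5, 31 and 13 without blood 1, 25 and 6 without blood 2, 13 and 3 without blood 3, 19 and 6 without blood 4, and 20 and 4 without blood 5. The genes that kept their call without any 1 of the 10 arrays were 12 higher (Atp6v0d2, Cidec, Ear1, Ear2, Ear10, Flvcr2, Krt79, Lpl, Ms4a8a, Rnase2a, Sftpc and Sftpd) and 3 lower (Haspin, Stil and Zkscan5). Fos lost it without lung 4, lung 5, blood 3, blood 4 or blood 5, Dusp1 without lung 5, blood 3, blood 4 or blood 5, and Rhob without blood 3. Fitted on the 10 lung and blood arrays alone, 9 of the 66 genes passed: Sftpc, Lmna and Rhob, higher, and Haspin, Stil, Zkscan5, Poc1b, Mrpl19 and Mrnip, lower. There the adjusted p (limma) was 0.055 for Chil3, 0.060 for Fos, and 0.054 for Ear2, Lpl, Jun and Dusp1. The main fit pooled its spread over all 20 arrays, so a gene that varied mostly in lung was given less spread than the lung arrays showed. Ear1, for example, had an SD of 3.36 in lung and 0.71 in blood. The part of this in the lost calls was not tested.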

How the data were processed

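Per the labels' protocols, amplified RNA of the sorted cells carried Cy3 alone, so each Agilent mouse array has 1 colour. The authors' deposited files give a background-subtracted signal intensity, which the file headers credit to Feature Extraction 11.0.1.1. Version 10.7 and Partek stand in the submitters' processing notes. The authors' deposited table holds log2 values, which matched quantile-normalized log2 signal with a median absolute difference of at most 0.000108 per array.

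Control spots (1377 of 44397 per array) and 24 non-uniform spots were left out, spots of a probe were averaged, log2 signal was taken and each array's 75th percentile subtracted. Unversioned RefSeq accessions (GRCm38.p6) named 27508 of 39429 probes, 20886 genes. The brightest probe stood for a gene, and a gene was tested where some site had 4 or 5 of its 5 arrays well above background. limma 3.58.1 (R 4.3.3) was fitted over all 20 arrays, 1 coefficient per site, 16 residual degrees of freedom, Benjamini-Hochberg within a contrast, threshold 0.05, and tested on simulated data. Bounds set the bright site's mean against, on each array where the gene was dim, its own signal or the lowest signal well above background, whichever was higher. Exact permutation tests used SciPy. Replicate numbers equal the 5 slides, which held 1 array of every site each. Residuals of same-numbered lung and blood arrays correlated at -0.34, 0.17, 0.15, -0.16 and 0.16, and the numbers were not taken as pairs. Such correlations do not exclude a slide effect on some genes, such as Mki67. A replicate block in the fit gave 62 higher and 52 lower genes. Named genes were the 66 called genes, the 4 brightest members of every list and some further T cell genes, with other genes named from their values as stated there. The lists and members were chosen with earlier results of these data known. Some genes among these are not reported here.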

Additional observations from a re-analysis of the deposited data

Results flagged for a closer look

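In 14 of 258 groups of 5 values, of a named gene or a list's mean at 1 site, 1 array lay far from the other 4, and chance alone would single out about 13 (1 in 20). Lung 3 was low for Chil3 (-2.13, the other lung arrays 6.37 to 8.21), Ear2 (-2.01, others 4.91 to 7.38) and Lmna (1.32, others 3.40 to 4.19). Rhob was low on lung 1 (-0.26, others 0.49 to 0.76).

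On the blood arrays, Ercc6l was high on blood 5 (0.51, others -0.30 to -0.11), Lmna was low on blood 5 (-1.07, others 0.11 to 0.46) and Surf6 was low on blood 4 (2.69, others 2.90 to 2.98). Among list means in lung, the Bcl2 family was low on lung 1 (2.65), effector and memory transcription factors (1.34) and zinc finger genes (0.85) were low on lung 4, and natural killer receptors were high on lung 5 (1.41). In blood, CD4 T cell genes were high on blood 2 (0.63), while fatty acid and PPAR genes (0.36) and integrins (2.42) were low on blood 1.

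Probes without a gene name entered no comparison of the report. Of 2760 such probes tested, 2 were higher in lung and none lower. Probe A_55_P2128853 differed by 6.37, with 3.76, 2.80, -2.23, 5.98 and 5.50 in lung and -3.82 to -2.15 in blood. Probe A_55_P2114187 differed by 3.82, with 1.76, 0.80, -1.60, 3.93 and 2.96 in lung and -3.02 to -1.67 in blood. Both had an adjusted p of 0.025 (limma).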

How the results depend on the processing

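The 66 called genes kept their direction in every setting that tested them, but the counts moved. Against 42 higher and 24 lower genes, quantile normalization gave 19 and 7, the deposited values also 19 and 7, median scaling 21 and 11, and scaling on probes well above background on all 20 arrays 17 and 7. The normexp correction gave 24 and 26, no filter on dim probes 50 and 14, and eBayes with trend and robust 38 and 15. With the test kept to probes that passed that mark on all 20 arrays, the counts were 0 and 0 (limma, 1633 at an unadjusted p under 0.05). Lung and blood arrays alone gave 12 and 11, of which 9 were among the 66, and array weights 183 and 517. The arrays labelled liver 5 and small intestine 5 may not match their labels, which was not tested here, but stayed in the main fit. Leaving them out gave 80 and 95, and with the all-20 scaling as well 83 and 448. A replicate block gave 62 and 52, and on the lung and blood arrays alone 0 and 0 (limma, 2613 unadjusted). Settings chosen after seeing the data were the replicate block without those 2 arrays (206 and 352) and leaving out both replicates 3 of lung and blood (54 and 7). Leaving out 1 lung or blood array in turn gave 13 to 397 higher and 3 to 449 lower. The cause of these moves was not tested. The median difference of all tested genes, -0.30, became -0.23 with quantile normalization, -0.48 with the all-20 scaling and -0.64 with median scaling. Signal over background limits the dim genes, for which folds are bounds.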

Other observations

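Replicate number marked some genes more than site did. Mki67, Cenpe, a kinesin of the centromere, Rrbp1, a ribosome receptor of the endoplasmic reticulum, and Cntrl, a centriole protein, were chosen after their values were seen. Cenpe was at 3.66 and 3.19 on lung 1 and 2 and at -0.79, 0.28 and 0.65 on lung 3, 4 and 5. In blood it was at 4.17 and 4.48 on the first pair and at 0.83, 0.10 and 0.92 on the rest. Rrbp1 was at 2.78 and 2.67 on lung 1 and 2 and at -2.31 to -0.83 on the others, and at 2.98 and 3.06 against -0.59 to 0.62 in blood. Cntrl was at 2.91 and 2.50 against -2.24 to -0.57 in lung, and at 2.86 and 3.22 against -0.53 to 0.47 in blood. At both sites, 12 genes were at least 1 log2 unit higher on replicates 1 and 2 than on replicates 3 to 5, and 1 was lower. Birc5 showed no such split, with 5.61 to 6.40 in lung and 5.78 to 6.49 in blood.

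Some genes had their extremes on the dimmest and the brightest array. Esrp1, Muc5b, Xcr1 and Ctla4, also chosen after their values were seen and none of them called, were each highest on lung 4, whose 75th percentile was the lowest (856.4), and lowest on blood 3, whose percentile was the highest (2403.9), of the 10 arrays. Esrp1 was at 6.45 on lung 4 and 3.89 on blood 3, and Ctla4, an inhibitory receptor of T cells, at 5.38 and 2.30.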
